A study of Homo sapiens with 8 samples.

Results

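Laminin chain and nidogen transcripts were examined by RNA sequencing of 8 libraries from the cell line AB8/13, human podocytes immortalised in a temperature-dependent way. The set held 9 genes (LAMA3, LAMA4, LAMA5, LAMB1, LAMB2, LAMB3, LAMC1, NID1 and NID2), chosen by symbol, out of 60564 genes in the deposited table. In 4 libraries, the ATOH8 knockdown group, an shRNA had been directed at ATOH8, a basic helix-loop-helix transcription factor, and in the other 4, the control group, a non-targeting shRNA had been used. Cells of both groups were expanded at 33 °C, differentiated over 5 days at 37 °C and received their shRNA by lipid transfection. One cell line was used, and neither the number nor the sequence of the ATOH8 shRNAs was known for this work. Separate cultures behind the numbered libraries of a group are not stated in the labels, so the spread that p-values rest on may be technical.

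Laminins are secreted as trimers of one alpha, one beta and one gamma chain and polymerise into the sheet on which a basement membrane is built. The alpha chain carries the globular domains that bind integrins and dystroglycan, while nidogens bind the LAMC1 chain and join the laminin network to collagen IV. In the developing glomerulus the basement membrane between podocytes and endothelium switches its laminin: LAMA1 and LAMB1 products give way to those of LAMA5 and LAMB2, and loss of LAMB2 causes Pierson syndrome with congenital nephrosis. LAMA4 is best known from the matrix of vessels and mesangium, and LAMA3 and LAMB3 are chains of the laminin that anchors epithelia such as skin.

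Total counts ran from 21108695 to 27109043 per library. ATOH8 itself had 51, 71, 61 and 53 counts in knockdown libraries and 175, 160, 122 and 128 in control libraries, which corresponds to -1.26 on the log2 scale (SE 0.127; adjusted p = 1.78e-09 by edgeR's quasi-likelihood test). Of the defining podocyte markers, NPHS1 (nephrin) had 2 to 6 counts in knockdown and 0 to 2 in control libraries, and WT1 had 108 to 147 counts in knockdown and 112 to 167 in control libraries. Of 11 podocyte markers, 7 had enough counts to test, and 1 rose, 4 fell and 2 missed the threshold. For comparison, 25.2% of all 16884 genes tested were called higher and 51.1% in either direction. SYNPO (synaptopodin) was the one that rose, to 24.9 ± 2.05 CPM in knockdown, against 17.2 ± 1.14 CPM in control libraries (SD, n = 4). Of those that fell, the slit diaphragm genes KIRREL1 and CD2AP averaged 489 ± 12.6 and 189 ± 13.3 CPM in knockdown libraries, against 626 ± 18.2 and 227 ± 5.76 CPM in control libraries (SD, n = 4). Of 9 parietal epithelial markers, all tested, 3 rose, 3 fell and 3 missed the threshold. PAX8 and CLDN1, the defining ones, were among those that missed it. They averaged 538 ± 25.5 and 579 ± 17.3 CPM in knockdown libraries, against 562 ± 19.9 and 592 ± 9.32 CPM in control libraries (SD, n = 4).

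ATOH8 belongs to a family that binds the E-box CANNTG. The stretches just upstream of the transcription starts of the 3 set members with the largest fold changes are shown. Each is the 250 bases before a RefSeq start in GRCh38.p14, on the minus strand and read 5′ to 3′, with E-boxes in capitals. LAMA4 lies at chr6:112254568-112254817, NID2 at chr14:52069060-52069309 and LAMA5 at chr20:62367313-62367562.
LAMA4: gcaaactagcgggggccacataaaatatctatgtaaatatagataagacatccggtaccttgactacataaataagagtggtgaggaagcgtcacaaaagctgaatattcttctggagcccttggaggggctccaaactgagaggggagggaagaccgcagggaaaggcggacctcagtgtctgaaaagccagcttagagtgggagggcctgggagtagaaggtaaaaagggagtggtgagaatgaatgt
NID2: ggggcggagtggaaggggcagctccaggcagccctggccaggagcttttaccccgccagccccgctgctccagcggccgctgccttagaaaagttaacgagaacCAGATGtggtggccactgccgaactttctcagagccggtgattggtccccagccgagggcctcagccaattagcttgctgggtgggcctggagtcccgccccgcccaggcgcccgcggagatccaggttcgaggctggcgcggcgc
LAMA5: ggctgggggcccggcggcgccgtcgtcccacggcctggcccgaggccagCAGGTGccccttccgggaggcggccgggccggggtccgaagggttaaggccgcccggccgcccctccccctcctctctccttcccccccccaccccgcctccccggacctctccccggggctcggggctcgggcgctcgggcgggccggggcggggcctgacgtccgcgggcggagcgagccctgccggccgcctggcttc

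The E-box pattern CANNTG reads the same on both strands, although a single match to it need not. It occurred once upstream of NID2, 146 bases before the start (CAGATG), and once upstream of LAMA5, 201 bases before it (CAGGTG), and the letters did not occur in the LAMA4 window. All 9 genes matched the RefSeq table, with 11 starts because LAMB3 has 3, and 4 of the 9 genes had at least 1 E-box. Of all 35116 promoters in the table, 61.8% had at least 1, a share counted per promoter and not per gene. The other genes with a match were LAMA3 and LAMB3, the latter before each of its 3 starts, whereas LAMB1, LAMB2, LAMC1 and NID1 had none. For LAMA3 only the listed start was searched, and not any other start of that gene. The windows also differed in base composition. GC content was 48.4% for LAMA4, 68.0% for NID2 and 82.8% for LAMA5, with a median of 58.0% over all promoters. A match of letters describes the window and not binding.

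Of the 9 laminin and nidogen genes, 8 were higher in ATOH8 knockdown, but by amounts that ranged from 1.06-fold for LAMB1 to 6.28-fold for LAMA4. The large changes were those of LAMA4, NID2 and LAMA5, which had the lowest levels of the set per kilobase of exon. The abundant chains LAMB1 and LAMC1 rose 1.06-fold and 1.11-fold, and LAMA3 did not pass the test. These 8 were called higher and 0 members lower, with edgeR's quasi-likelihood test at an adjusted p below 0.05. Over all 16884 genes tested, 25.2% were called higher and 51.1% were called in either direction, and among genes at least as abundant as the lowest member 27.1% were called higher. In the same 8 members every knockdown library lay above every control library, which was so for 22.4% of all genes tested. The median log2 fold change was 0.26 over the members and -0.00072 over all genes tested. Because RNA was taken from whole cultures, more cells expressing a gene and more RNA per cell cannot be told apart.

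**Figure D1:**
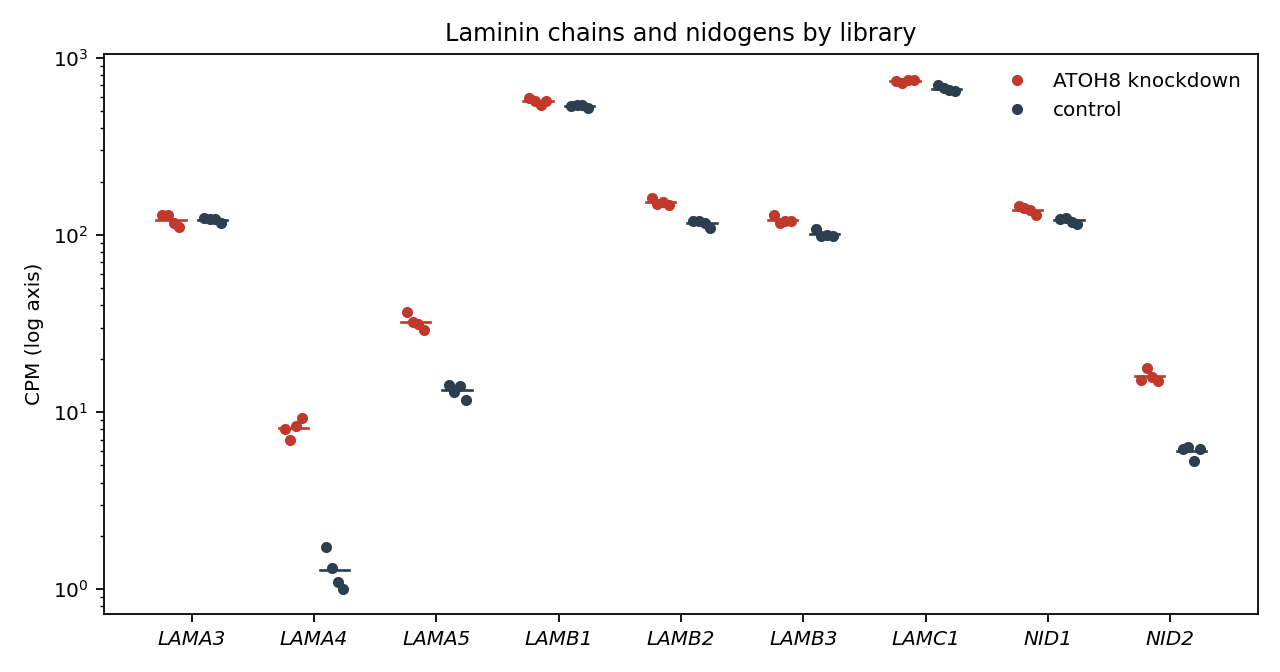
CPM (counts scaled to TMM library size) of the 9 genes of the set on a log axis, with 1 point per library and a line at the group mean, ATOH8 knockdown in red and control in dark blue. LAMA4, LAMA5 and NID2 show the widest separation, and LAMA3 is the one gene of the 9 whose groups overlap.

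Among the alpha chains, LAMA4 showed the largest difference of the set. Its level was 8.04, 6.95, 8.39 and 9.27 CPM in knockdown libraries and 1.72, 1.31, 1.09 and 1.01 CPM in control libraries. The counts behind these values were 177 to 233 in knockdown and 23 to 46 in control libraries, so the control level rests on few reads. All 4 knockdown libraries lay far above all control libraries, and the log2 fold change was 2.65 (SE 0.142, edgeR adjusted p = 2.63e-15). A larger log2 fold change was found for 58 of the 16884 genes tested.

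LAMA5, the alpha chain of the mature glomerular basement membrane, had 36.6, 32.3, 31.6 and 29.1 CPM in knockdown libraries and 14.2, 13.0, 14.1 and 11.7 CPM in control libraries. The groups lay far apart, with no overlap. The log2 fold change was 1.29 (SE 0.0712, edgeR adjusted p = 3.05e-12), or 2.45-fold.

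LAMA3, the alpha chain of the epithelial anchoring laminin, had 129, 130, 117 and 110 CPM in knockdown libraries and 125, 123, 123 and 117 CPM in control libraries. The knockdown libraries spread on both sides of the control libraries. Its log2 fold change was -0.0048 (SE 0.0442, edgeR adjusted p = 0.94), with a 95% interval from -0.097 to 0.088. LAMA3 gives rise to a long and a short protein from different starts, and counts per gene do not separate them.

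Of the alpha chains outside the set, LAMA1 rose and LAMA2 missed the threshold. LAMA1, the alpha chain of early embryonic basement membranes, had 50.5, 49.3, 48.5 and 54.5 CPM in knockdown libraries and 33.4, 30.9, 33.1 and 30.9 CPM in control libraries. It rose 1.58-fold without overlap (log2 0.66, SE 0.0466, edgeR adjusted p = 1.05e-12). LAMA2, the alpha chain of muscle and nerve, averaged 2.47 ± 0.185 CPM in knockdown and 2.68 ± 0.361 CPM in control libraries (SD, n = 4), which missed the threshold (log2 -0.12, SE 0.149, edgeR adjusted p = 0.518).

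The 3 beta chains of the set rose in graded steps. LAMB2, the beta chain of the mature glomerular basement membrane, had 162, 149, 154 and 147 CPM in knockdown libraries and 120, 120, 117 and 109 CPM in control libraries. The groups were well apart, and the log2 fold change was 0.39 (SE 0.0371, edgeR adjusted p = 4.81e-10), or 1.31-fold. LAMB3, the partner of LAMA3 in epithelial laminin, had 130, 116, 119 and 120 CPM in knockdown libraries and 108, 98.0, 99.4 and 98.2 CPM in control libraries. One control library stood above the other control libraries but below every knockdown library, and the log2 fold change was 0.26 (SE 0.0388, edgeR adjusted p = 1.74e-06).

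LAMB1, the widespread beta chain that precedes LAMB2 in the glomerulus, had 591, 571, 543 and 569 CPM in knockdown libraries and 538, 542, 541 and 520 CPM in control libraries. The groups did not overlap, but the lowest knockdown and the highest control library were almost level. The log2 fold change was 0.088 (SE 0.0311, edgeR adjusted p = 0.0192), the smallest among the members called. That call was lost without knockdown replicate 1 (edgeR adjusted p = 0.075), without control replicate 4 (0.0815) and without a filter on low counts (0.0501). LAMB4, a beta chain of little known function and not in the set, had 1 to 6 counts in knockdown and 0 to 8 in control libraries, too few to test.

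LAMC1, the gamma chain shared by most laminins and the one that nidogens bind, had the highest CPM of the set. It had 743, 721, 753 and 749 CPM in knockdown libraries and 699, 671, 659 and 650 CPM in control libraries. The groups were separate by a small margin, and the log2 fold change was 0.15 (SE 0.0308, edgeR adjusted p = 0.000197), or 1.11-fold. LAMC3, a gamma chain not in the set, had 21, 18, 21 and 15 counts in knockdown libraries and 2, 7, 1 and 4 in control libraries. It rose with no overlap (log2 2.43, SE 0.384, edgeR adjusted p = 4.54e-06), at levels of 0.778 ± 0.152 CPM in knockdown and 0.135 ± 0.0965 CPM in control libraries (SD, n = 4).

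Both nidogens, the linkers between laminin and collagen IV, rose, by unequal amounts. NID2 had 15.2, 17.8, 15.7 and 14.97 CPM in knockdown libraries and 6.19, 6.34, 5.28 and 6.21 CPM in control libraries. The knockdown libraries stood well clear of the control libraries, and the log2 fold change was 1.40 (SE 0.0805, edgeR adjusted p = 1.21e-14), or 2.64-fold. NID1 had 146, 143, 138 and 129 CPM in knockdown libraries and 123, 125, 119 and 116 CPM in control libraries. Its groups lay close together without overlap, and the log2 fold change was 0.20 (SE 0.0376, edgeR adjusted p = 4.75e-05), or 1.15-fold. Spread within a group was small for the abundant genes, with a coefficient of variation of 1.90% in knockdown and 3.19% in control libraries for LAMC1. It was larger for LAMA4, at 11.8% in knockdown and 24.9% in control libraries.

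**Figure D2:**
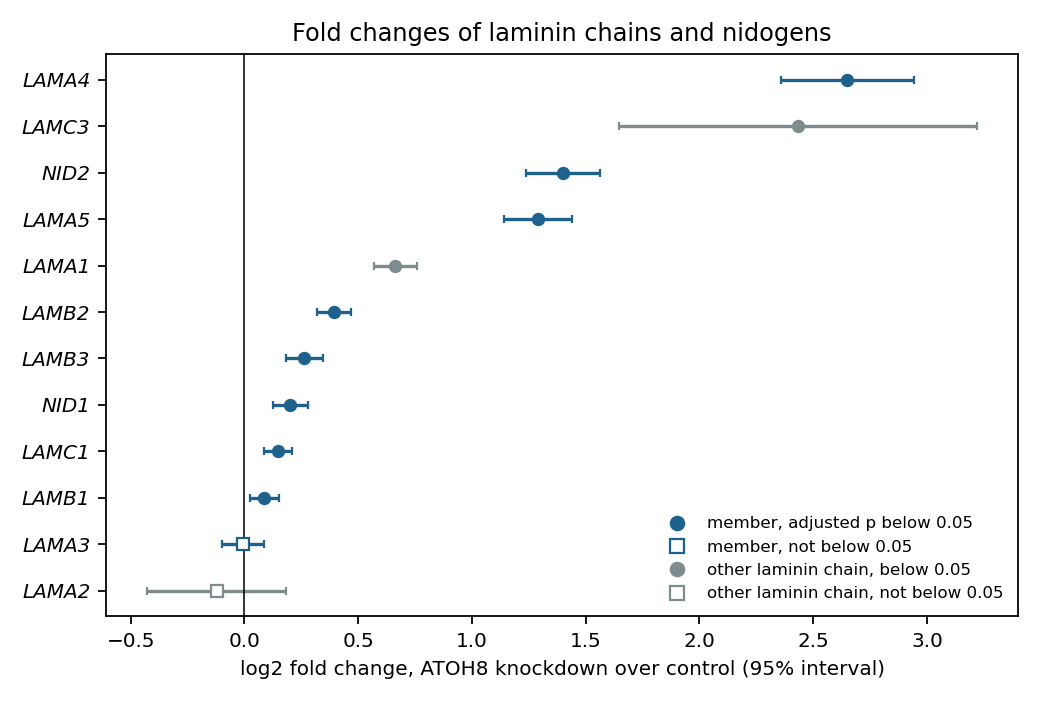
Log2 fold change of ATOH8 knockdown over control with its 95% interval for 12 laminin and nidogen genes, with the 9 genes of the set in blue and the other laminin chains in grey. LAMA4 at 2.65, NID2 at 1.40 and LAMA5 at 1.29 stand to the right of the beta chains, and the intervals of LAMA3 and LAMA2 cross 0.

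Ratios of a pair of genes within a library do not depend on how libraries are scaled, and 3 of them were compared. The log2 ratio of LAMA4 to LAMA5 counts was -2.19, -2.22, -1.91 and -1.65 in knockdown libraries and -3.04, -3.31, -3.69 and -3.53 in control libraries, a difference of 1.40. The log2 ratio of LAMB2 to LAMB1 counts, the mature over the immature beta chain, was -1.87, -1.94, -1.82 and -1.95 in knockdown libraries and -2.16, -2.17, -2.21 and -2.26 in control libraries, a difference of 0.31. For NID2 over NID1 the log2 ratio was -3.26, -3.01, -3.14 and -3.11 in knockdown libraries and -4.31, -4.30, -4.49 and -4.22 in control libraries, a difference of 1.21. All 3 ratios were higher in each knockdown library than in any control library. Each gave p = 0.0286 in a two-sided exact permutation test over the libraries, and 0.0286 after Benjamini-Hochberg adjustment over the 3, the smallest value that 4 libraries against 4 allow. The differences largely follow from the fold changes already given, so these tests are not separate support. With the libraries paired by replicate number, the smallest p that the sign-flip test allows is 0.125, which each ratio reached.

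**Figure D3:**
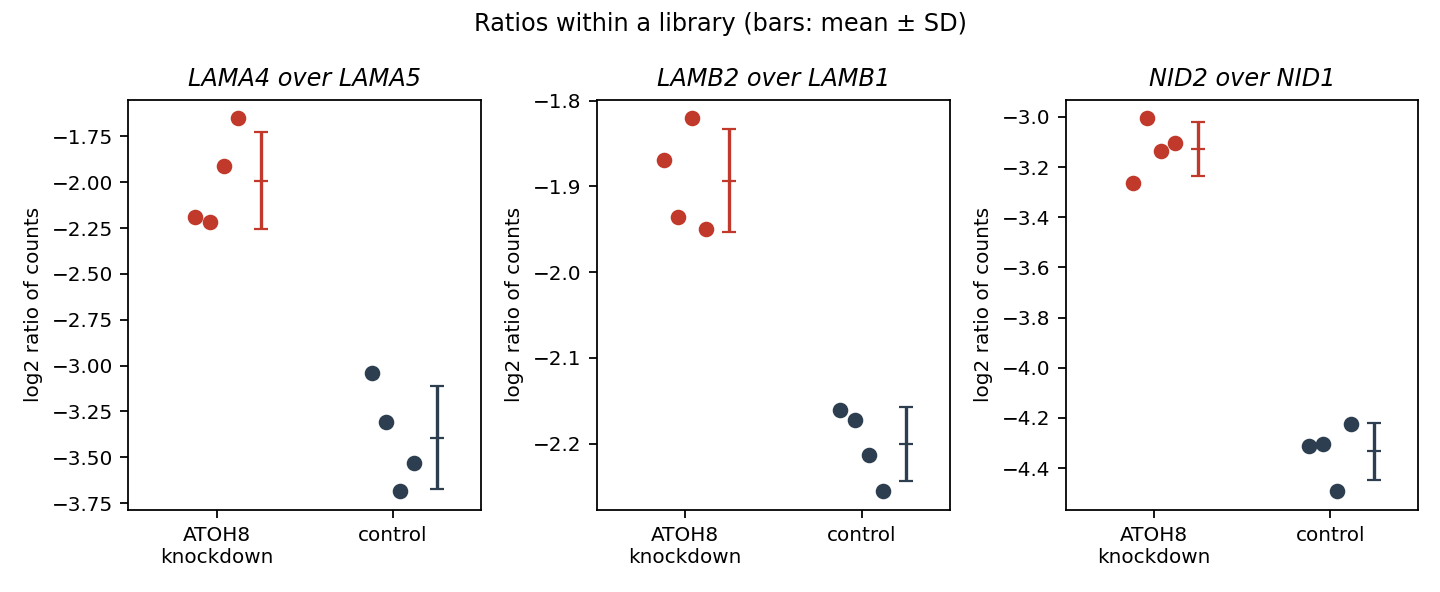
Log2 ratio of counts within each library for LAMA4 over LAMA5, LAMB2 over LAMB1 and NID2 over NID1, with ATOH8 knockdown left of control, 1 point per library and a bar for the mean ± SD. The groups do not overlap in any of the 3 panels, and each axis has its own range.

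Levels of different genes were set side by side as CPM per kilobase of annotated exon. In knockdown libraries the order of the set was LAMC1 at 88.2 ± 1.67, LAMB1 at 69.9 ± 2.43, LAMB3 at 25.9 ± 1.25, NID1 at 23.7 ± 1.29, LAMB2 at 22.3 ± 0.944, LAMA3 at 8.29 ± 0.644, NID2 at 2.49 ± 0.198, LAMA5 at 2.27 ± 0.219 and LAMA4 at 0.705 ± 0.083 CPM per kilobase (SD, n = 4). Control libraries gave the same order of the 9 genes, from LAMC1 at 79.6 ± 2.54 and LAMB1 at 65.7 ± 1.26 down to NID2 at 0.939 ± 0.0766, LAMA5 at 0.927 ± 0.0818 and LAMA4 at 0.111 ± 0.0276 CPM per kilobase. LAMB3 and NID1 overlapped across libraries in both groups, as did NID2 and LAMA5, and NID1 and LAMB2 overlapped in knockdown libraries.

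Alpha chain transcripts were far scarcer per kilobase than those of the beta chains, although a trimer holds one of each. The 5 alpha chains summed to 14.7 ± 0.68 CPM per kilobase in knockdown and 11.6 ± 0.406 in control libraries (SD, n = 4). The 4 beta chains summed to 118 ± 4.05 in knockdown and 104 ± 2.53 in control libraries. The sum was 1.26 times as high in knockdown for alpha chains and 1.13 times for beta chains. These sums follow from fold changes already given and were not tested.

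Within the alpha chains the make-up differed between the groups. LAMA3 made up 56.4 ± 2.17% of the alpha total in knockdown and 71.5 ± 0.794% in control libraries (SD, n = 4), while its own level was nearly equal. LAMA5 made up 15.4 ± 0.888% in knockdown and 7.96 ± 0.449% in control libraries, and LAMA4 4.82 ± 0.744% in knockdown and 0.95 ± 0.209% in control libraries. LAMA1 held 21.8 ± 1.82% in knockdown and 17.4 ± 0.401% in control libraries. Among beta chains, LAMB2 held 18.9 ± 0.514% in knockdown and 16.3 ± 0.393% in control libraries, and LAMB1 59.2 ± 0.909% in knockdown and 63.1 ± 0.768% in control libraries. NID2 made up 9.51 ± 0.633% of the nidogen total in knockdown and 4.36 ± 0.321% in control libraries. None of these shares overlapped between the groups, and the share of LAMB3 among beta chains did overlap.

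**Figure D4:**
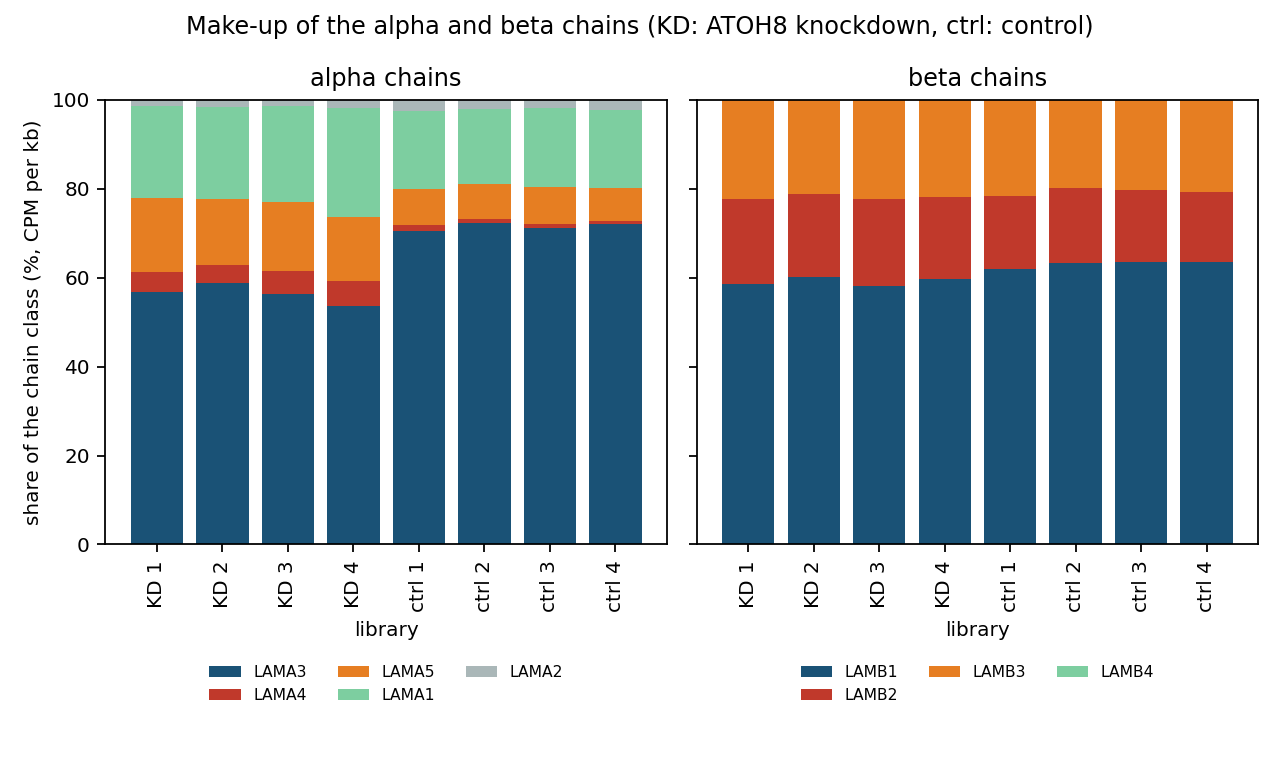
Share of each gene in the summed CPM per kilobase of its chain class, in percent, for every library, with the 4 ATOH8 knockdown libraries (KD) left of the 4 control libraries (ctrl). The alpha panel shows LAMA3 at 56.4% on average in knockdown and 71.5% in control libraries, with wider LAMA5 and LAMA4 bands in knockdown, and the beta panel LAMB2 at 18.9% in knockdown and 16.3% in control libraries.

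Receptors for laminin went both ways. Of 13 listed receptor genes, all tested, 6 rose, 5 fell and 2 missed the threshold, and the median log2 fold change was 0.022. Counts for this and the later lists stand beside those of all 16884 genes tested. Of these, 25.2% were called higher and 51.1% in either direction, so a mixed list is common here. BCAM, the Lutheran glycoprotein that binds LAMA5, rose to 14.8 ± 1.45 CPM in knockdown, against 5.91 ± 0.504 CPM in control libraries (SD, n = 4; log2 1.32, SE 0.0854, edgeR adjusted p = 1.71e-13). ITGB4, the integrin subunit of hemidesmosomes, rose (log2 0.70, SE 0.0675), as did SGCB, a sarcoglycan (log2 0.25, SE 0.0323). The integrin chains ITGA6 (log2 -0.28, SE 0.034) and ITGB1 (log2 -0.14, SE 0.0319) and the sarcoglycan SGCE (log2 -0.35, SE 0.0472) fell. Their edgeR adjusted p ranged up to 0.000601 for ITGB1. DAG1, which encodes dystroglycan, averaged 107 CPM in knockdown and 105 CPM in control libraries (log2 0.022, SE 0.0367, edgeR adjusted p = 0.65). Of 12 tested genes that build the laminin-binding sugar of dystroglycan, 2 rose, 3 fell and 7 missed the threshold, and the largest change called was that of POMGNT1 (log2 0.20, SE 0.0407).

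Other basement membrane genes also split. Of 20 tested partners of the laminin network, 10 rose, 6 fell and 4 missed the threshold, and the median log2 fold change was 0.045. FBLN1, a fibulin that binds laminin and nidogen, rose to 5.30 ± 0.683 CPM in knockdown, against 0.179 ± 0.0872 CPM in control libraries, where it had 2 to 7 counts (log2 4.84, SE 0.231, edgeR adjusted p = 2.07e-16). TINAGL1 (log2 0.48, SE 0.0398), a matricellular protein, and PXDN (log2 0.32, SE 0.0317), the peroxidase that crosslinks collagen IV, rose as well. NPNT, the integrin ligand nephronectin of the glomerular basement membrane, fell to 14.9 ± 0.904 CPM in knockdown, against 28.0 ± 0.716 CPM in control libraries (log2 -0.92, SE 0.055). FREM2 (log2 -1.33, SE 0.174), a basement membrane protein of the Fraser complex, and COL4A4 (log2 -0.50, SE 0.0685), a chain of mature glomerular collagen IV, fell. COL4A4 thus fell while LAMA5 and LAMB2, the laminin chains of the same mature membrane, rose. LAMA1 and LAMB1, the chains that those replace in development, rose as well. Of the other collagen IV chains, COL4A3 (log2 -0.62, SE 0.167) and COL4A5 (log2 -0.25, SE 0.0468) fell. COL4A1 (log2 0.18, SE 0.0305) and COL4A2 (log2 0.16, SE 0.0353) rose, and COL4A6 missed the threshold.

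Netrins, which share the laminin short-arm fold, and enzymes that trim laminin or its matrix were mostly higher or not called. Of 4 netrin genes tested, NTN4, which can interrupt laminin polymers, rose (log2 0.82, SE 0.0675), NTN1 rose (log2 0.45, SE 0.0403), and NTNG1 and NTNG2 missed the threshold. Of 10 enzymes that process laminin chains or the surrounding matrix, 7 rose, 1 fell and 2 missed the threshold (median log2 fold change 0.22). TLL2, a protease of the BMP1 family, rose to 108 ± 1.74 CPM in knockdown, against 57.3 ± 2.25 CPM in control libraries (log2 0.91, SE 0.0361). PLAT (log2 0.58, SE 0.0447), the tissue plasminogen activator, and MMP2 (log2 0.35, SE 0.0342) also rose, and the lysosomal protease CTSS fell (log2 -1.16, SE 0.0482). Of 10 chaperones and disulfide enzymes of the endoplasmic reticulum, where laminin trimers are assembled, 2 rose, 6 fell and 2 missed the threshold (median log2 fold change -0.13). HSP90B1 (log2 -0.31, SE 0.0314), HSPA5 (log2 -0.29, SE 0.0315) and PDIA4 (log2 -0.27, SE 0.0307) fell, and PDIA6 (log2 0.11, SE 0.0298) and P4HB (log2 0.10, SE 0.0296) rose. Among the basement membrane partners, netrins, enzymes and chaperones said here to have risen or fallen, the highest edgeR adjusted p was 0.00495, for P4HB.

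**Figure D5:**
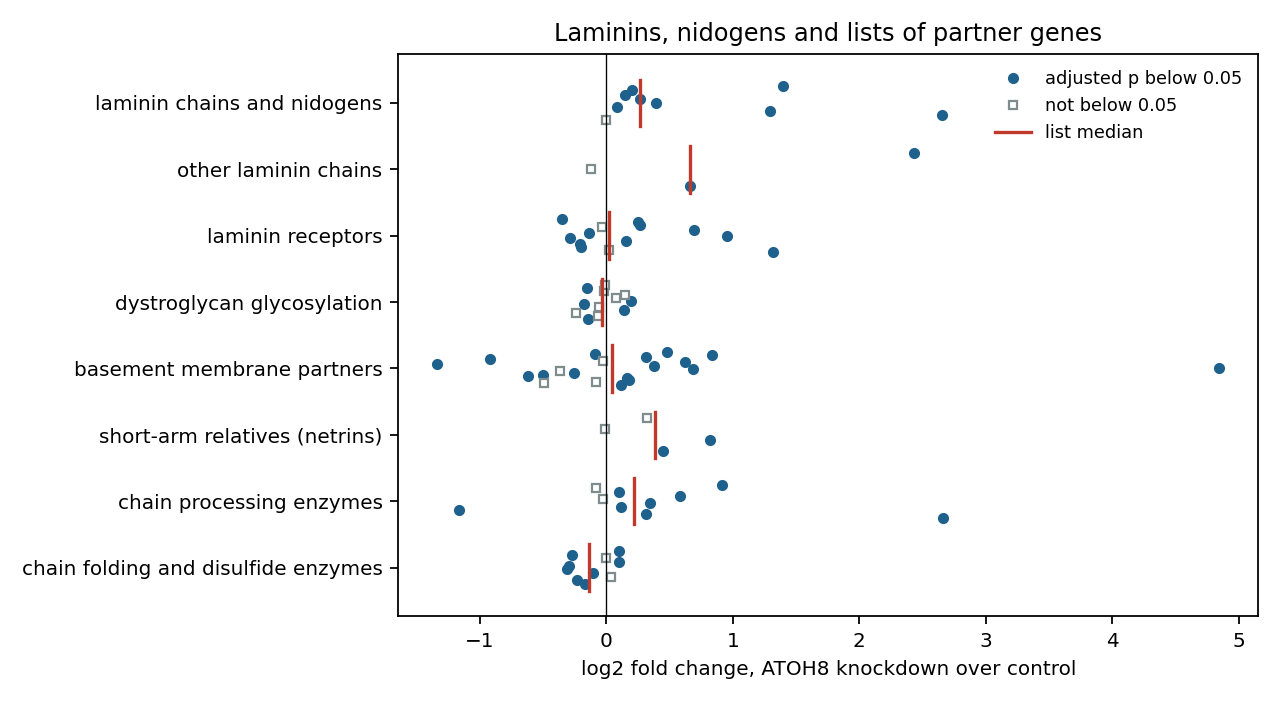
Log2 fold change of ATOH8 knockdown over control for each tested gene of the set and of the partner lists, filled where the adjusted p was below 0.05, with a red line at the median of each list. The laminin and nidogen genes of the set lie at or right of 0, whereas receptors and basement membrane partners lie on both sides.

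LAMA4 is a chain of vascular and mesangial matrix, so markers of endothelial and mesangial cells were read beside it. Of 13 endothelial markers, 6 had enough counts to test and 4 rose, and their summed level was 53.9 to 55.4 CPM in knockdown and 36.3 to 39.5 CPM in control libraries. EHD3, which made up most of that sum, averaged 34.8 CPM in knockdown and 24.7 CPM in control libraries and rose. ROBO4 averaged 9.93 CPM in knockdown and 9.97 CPM in control libraries and missed the threshold. Of the defining endothelial markers, PECAM1 had 0 counts in knockdown and at most 1 in control libraries, CDH5 had 16 to 21 in knockdown and 9 to 15 in control libraries, and VWF had 17 to 26 in knockdown and 6 to 13 in control libraries. Of 11 mesangial and pericyte markers, 7 were tested, 5 rose and 1 fell, with a summed level of 684 to 721 CPM in knockdown and 601 to 623 CPM in control libraries. Of their defining markers, ITGA8 had at most 1 count in knockdown and 0 in control libraries, GATA3 had 1 to 5 in knockdown and 0 to 4 in control libraries, and PDGFRB had 216 to 252 in knockdown and 141 to 204 in control libraries. MCAM, which made up most of the summed level, averaged 502 CPM in knockdown and 513 CPM in control libraries and missed the threshold. Of the other listed genes that rose, THY1 was 11.1-fold higher in knockdown (19.1 ± 1.07 CPM in knockdown and 1.69 ± 0.264 CPM in control libraries), CSPG4 3.65-fold and NOTCH3 2.59-fold, and TIE1 of the endothelial list 6.43-fold (6.77 ± 0.335 CPM in knockdown and 1.05 ± 0.278 CPM in control libraries; SD, n = 4). All libraries came from the same podocyte line, and any link of these markers to the LAMA4 difference was not tested.

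The genes whose profile over the 8 libraries was nearest to that of LAMA4 were RGS4, NGFR, MEG3, ANK1 and CDH4, out of 12155 genes whose log2 CPM averaged 2 or more. Likeness was the Euclidean distance between log2 CPM values taken relative to the control mean, which was 0.775 for RGS4 and 1.14 for CDH4. RGS4 averaged 18.9 ± 1.34 CPM in knockdown and 3.60 ± 0.389 CPM in control libraries (SD, n = 4), and CDH4, a cadherin, averaged 19.9 ± 0.934 CPM in knockdown and 4.41 ± 0.382 CPM in control libraries. The 5 genes lie on chromosomes 1, 17, 14, 8 and 20, and LAMA4 on chromosome 6. A gene with a like step between the groups scores as near whatever its level.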

How the data were processed

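Polyadenylated RNA was sequenced in 8 libraries. The authors deposited whole-number counts per gene, 1 column per library, taken here as raw read counts. The tools STAR, featureCounts, DESeq2 and FastQC and the build hg19 are listed in the submitters' processing notes, while versions, annotation, strand setting and the treatment of ambiguous reads are not given in these sources. The antisense and pseudogene rows of this family (LAMA4-AS1, LAMA5-AS1, LAMC1-AS1, LAMB2P1) had at most 2 counts in any library.

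Of 60609 rows, 1 with a missing cell and 44 Y copies of pseudoautosomal genes were left out. A table of gene names gave symbols for 60295 IDs, and GENCODE release 29 for most others. Genes were filtered with filterByExpr, scaled by TMM and tested with the quasi-likelihood F test of edgeR 4.0.16 (R 4.3.3) over all genes, with Benjamini-Hochberg adjustment and a threshold of 0.05. CPM is counts divided by the TMM-scaled library size and multiplied by 1e6. SE came from the F statistic. Exon lengths came from GENCODE release 29 (GRCh38, not hg19), and the printed coordinates are those of RefSeq promoter windows in GRCh38.p14, not of the counted features. The fit was tested on simulated counts of 16664 genes. It recovered 77 of 100 genes changed 1.3-fold and 95 of 100 changed 2-fold, with 6 unchanged genes among 178 calls. Far fewer genes changed there than were called in the data, and none by less than 1.3-fold. The simulation thus does not check the smallest changes called here. Libraries of a group were compared pairwise for duplicates, and all 12 pairs differed beyond sampling noise (chi-square per gene 1.90 to 4.48).

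The members and gene lists were chosen with earlier results of these data known. The text names all members, the other laminin chains, up to 3 rises and 3 falls per partner list by adjusted p, and the 5 nearest profiles to the member with the largest change. Further genes (DAG1, KIRREL1, CD2AP, SYNPO, THY1, CSPG4, NOTCH3, MCAM, TIE1, EHD3, ROBO4, HSPG2, COL7A1, FRAS1, COL4A1, COL4A2, COL4A3, COL4A5, COL4A6) and the defining markers were named after their values were seen. A few genes of the lists are not reported here. Alternatives were DESeq2 size factors, a Wald test in DESeq2 1.42.0, an absent filter, at least 1 CPM in 4 libraries, the replicate block and the omission of each library.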

Additional observations from a re-analysis of the deposited data

Results flagged for a closer look

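A library that stands apart from the other 3 of its group was looked for in 26 groups of 4 values (9 members, ATOH8 and 3 ratios), and chance marks about 5% of such groups. LAMB3 was at 108 CPM in control replicate 1, above the other control libraries at 98.0 to 99.4 CPM. Without that library the log2 fold change of LAMB3 was 0.30, against 0.26 with it, and the call held (edgeR adjusted p = 2.72e-07). NID2 was at 5.28 CPM in control replicate 3, below the other control libraries at 6.19 to 6.34 CPM. Without that library the log2 fold change of NID2 was 1.35, against 1.40 with it (edgeR adjusted p = 6.04e-13).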

How the results depend on the processing

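The calls of LAMA4, LAMA5, LAMB2, LAMB3, LAMC1, NID1, NID2 and ATOH8 held in all 13 alternatives, with log2 fold changes of 2.54 to 2.83 for LAMA4, 1.34 to 1.43 for NID2, 1.23 to 1.34 for LAMA5 and -1.34 to -1.20 for ATOH8. LAMB1 held in 10 of 13, and 7 or 8 members were called. LAMA3, which did not pass the test in any, turned to 0.0023 with at least 1 CPM in 4 libraries and, with each library omitted in turn, lay between -0.036 and 0.039. The cause was not tested. The count of all genes called ran from 7755 with DESeq2 to 8979 without a filter, against 8625. Same-numbered libraries did not all deviate together, with correlations of -0.06 to 0.144. Knockdown replicates 1, 2 and 4 correlated best with the control library of their own number, and knockdown replicate 3 did not. Correlations this small and mixed cannot decide whether the numbers pair the libraries. With the replicate block 8 members and 8802 genes were called. The 3 ratios kept their differences under that pairing (1.40 for LAMA4 over LAMA5, 0.31 for LAMB2 over LAMB1 and 1.21 for NID2 over NID1), at p = 0.125 by an exact sign-flip test, the smallest that 4 pairs allow. Shares depend on the length used: with the longest transcript LAMA4 made up 6.07% of alpha chains in knockdown and 1.21% in control libraries, LAMB2 ranked above NID1 in knockdown libraries, and LAMB1 ranked above LAMC1 in both groups, with overlap in knockdown libraries. Counts of 23 to 46 limit the precision of LAMA4 in control libraries.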

Other observations

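Some genes of the matrix around laminins were not among those named above and were picked after their values were seen. HSPG2, the heparan sulfate proteoglycan perlecan that nidogens also bind, averaged 803 ± 81.6 CPM in knockdown and 521 ± 41.2 CPM in control libraries (SD, n = 4; log2 0.62, SE 0.0906, edgeR adjusted p = 0.00117). COL7A1, the anchoring fibril collagen of skin, averaged 616 ± 51.2 CPM in knockdown and 382 ± 25.3 CPM in control libraries (log2 0.69, SE 0.0708, edgeR adjusted p = 8.02e-05). FRAS1, a partner of FREM2 in the Fraser complex, rose (log2 0.37, SE 0.044, edgeR adjusted p = 3.25e-08), whereas FREM2 fell.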
